A study of Homo sapiens with 12 samples.

Results

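The 7 genes examined here encode enzymes and receptors of the prostaglandin pathway, and they were chosen by name as the rows of the deposited count table for PTGS1, PTGS2, PTGES, PLA2G4A, PTGER2, PTGER4 and HPGD. They are 7 of 23459 genes in that table. All 7 passed the filter on low counts, which left 14775 genes for testing, and all 7 had at least 1 count in each of the 12 libraries.

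Prostaglandins are short-lived lipid messengers. A phospholipase releases arachidonic acid from membranes, a cyclooxygenase turns it into the unstable intermediate prostaglandin H2, and terminal synthases turn that intermediate into prostaglandin E2 and its relatives, which act on receptors of the same or of nearby cells and are then inactivated. In epithelium prostaglandin E2 is known for its part in wound repair, inflammation and growth, and the inducible cyclooxygenase is the target of many anti-inflammatory drugs.

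The libraries were made to ask how an excess of JUN, a subunit of the transcription factor AP-1, alters the response of cells to YAP, the coactivator that the Hippo pathway restrains. RNA was sequenced from MCF10A, a human line of mammary epithelium that does not form tumours. The design crossed a JUN expression vector or the empty vector with treatment by doxycycline (Dox) at 100 ng/ml or by ethanol (EtOH), its solvent, with 3 libraries in each of the 4 groups. The study's methods describe the libraries of a group as biological replicates.

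All 4 groups carried a doxycycline-inducible YAP5SA allele, a form of YAP that the Hippo kinases cannot inactivate. The vector EtOH group had the empty vector and no induction, vector Dox had the empty vector with YAP5SA induced, JUN EtOH had the JUN vector without induction, and JUN Dox had both. No group received doxycycline without carrying the allele, so effects of the drug itself and of YAP5SA cannot be told apart. Every group was grown with horse serum, insulin, EGF, hydrocortisone and cholera toxin. Hydrocortisone is a glucocorticoid and cholera toxin raises cyclic AMP, the second messenger of the EP2 and EP4 receptors, so each control level given here was measured with both present.

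Stretches before the starts of PTGS1, PTGS2, PTGES and PTGER4 are shown because these 4 genes were called in most comparisons. They come from RefSeq on GRCh38.p14, read 5′ to 3′ on the strand of the gene, and hold the 250 bases before a start of transcription. Capitals mark matches to the motifs searched for.
PTGS2, chr1:186680424-186680673, minus strand: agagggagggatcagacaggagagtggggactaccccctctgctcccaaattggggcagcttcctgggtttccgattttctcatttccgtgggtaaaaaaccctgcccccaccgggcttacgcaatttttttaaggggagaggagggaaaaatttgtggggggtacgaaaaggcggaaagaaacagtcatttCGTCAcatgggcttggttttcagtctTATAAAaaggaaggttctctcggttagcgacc
PTGS1 start 1, chr9:122370283-122370532, plus strand: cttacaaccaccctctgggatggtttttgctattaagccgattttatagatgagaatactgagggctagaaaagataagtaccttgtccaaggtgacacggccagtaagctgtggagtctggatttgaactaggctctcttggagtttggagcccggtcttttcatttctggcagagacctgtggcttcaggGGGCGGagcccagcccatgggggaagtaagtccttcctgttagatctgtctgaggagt
PTGS1 start 2, chr9:122375052-122375301, plus strand: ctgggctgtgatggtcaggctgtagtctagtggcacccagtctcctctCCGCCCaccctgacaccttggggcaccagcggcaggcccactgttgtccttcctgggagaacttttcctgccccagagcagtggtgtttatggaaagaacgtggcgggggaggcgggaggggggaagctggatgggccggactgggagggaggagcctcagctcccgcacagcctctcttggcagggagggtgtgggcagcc
PTGES, chr9:129753043-129753292, minus strand: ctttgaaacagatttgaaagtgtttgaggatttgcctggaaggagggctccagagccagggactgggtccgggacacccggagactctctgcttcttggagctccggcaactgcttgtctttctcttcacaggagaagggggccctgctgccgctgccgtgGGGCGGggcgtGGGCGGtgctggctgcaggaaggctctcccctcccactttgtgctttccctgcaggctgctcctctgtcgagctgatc
PTGER4, chr5:40679665-40679914, plus strand: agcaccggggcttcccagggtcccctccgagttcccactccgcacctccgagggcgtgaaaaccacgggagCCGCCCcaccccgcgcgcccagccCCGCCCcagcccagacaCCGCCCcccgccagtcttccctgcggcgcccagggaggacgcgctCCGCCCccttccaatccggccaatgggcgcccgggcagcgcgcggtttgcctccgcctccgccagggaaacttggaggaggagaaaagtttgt

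Motifs were searched in all 9 listed promoters of the 7 genes and in 35116 promoter stretches of the same length. The AP-1 motif (TGANTCA, both strands) stood in 6.57% of all stretches and in 0 of the 9. The TEAD motif (CATTCC, both strands), the element bound by the partners of YAP, stood in 11.9% of all stretches and in 0 of the 9. The half-site of the cyclic AMP response element (CRE, TGACG, both strands) stood in 21.2% of all stretches and in 3 of the 9, those of PTGS2, PTGER2 and the second start of HPGD. A TATA box (TATAAA, sense strand) stood in 6.8% of all stretches and, among the 9, before PTGS2 alone. A GC box (GGGCGG, both strands) stood in 42.6% of all stretches and in 6 of the 9, with 4 copies before PTGER4. None of the marked sites overlapped another. A match is a run of letters and not a measured binding site, and enhancers farther away were not searched.

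**Figure D1:**
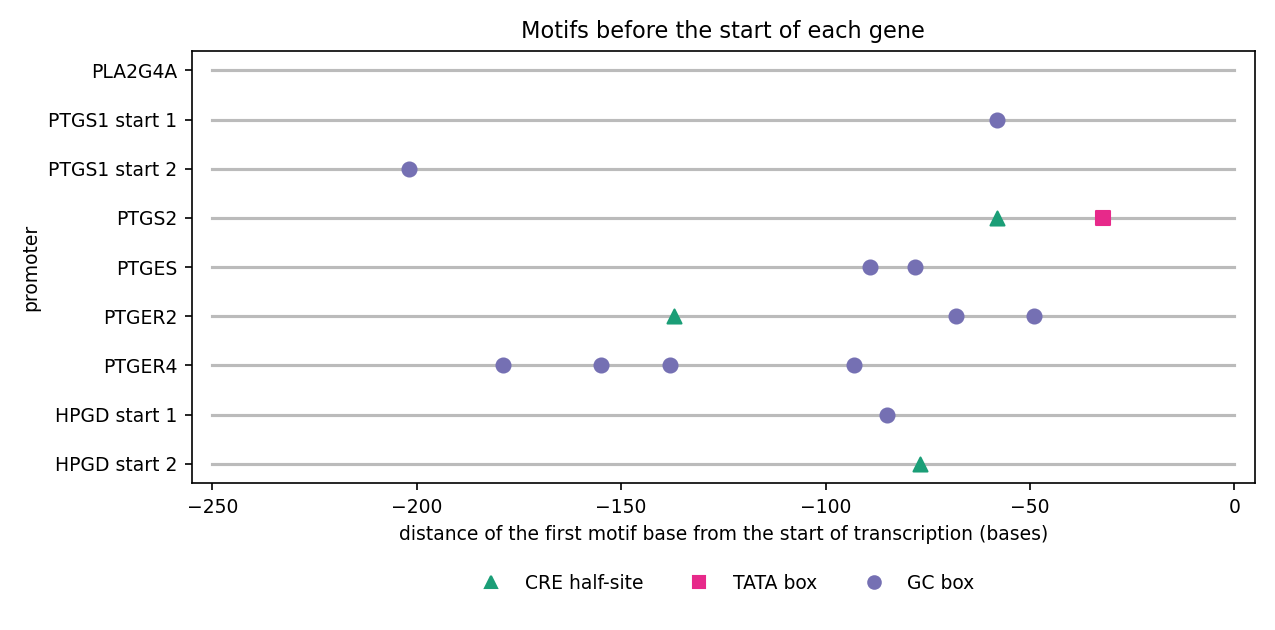
Each row is the stretch of 250 bases before a listed start of transcription, the horizontal axis is the distance from that start in bases, and each symbol marks the first base of a motif match. PTGS2 carries a TATA box at -32 and a CRE half-site at -58, PTGER4 carries 4 GC boxes, and PLA2G4A carries no match.

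Total counts ranged from 18594867 to 28993487 per library, and 3 counts, used as the detection floor, corresponded to 0.107 to 0.150 CPM, the unit of counts scaled to library size. JUN, the gene of the vector, had 47.6 ± 10.5 CPM in vector cells without and 189.6 ± 4.15 with induction, and 1278 ± 187 CPM in JUN cells without and 1248 ± 92.3 with it (SD, n = 3). YAP1 had 179 ± 10.5, 236 ± 31.5, 234 ± 20.9 and 279.7 ± 79.3 CPM in the same order, sums of the endogenous transcript and any YAP5SA reads that align there, and its increase on induction in vector cells (log2 0.40) missed the threshold (edgeR adjusted p = 0.0819) and passed it without replicate 1 or replicate 3 of JUN Dox and when only the libraries of that comparison were fitted. The rise of JUN on induction in vector cells was called (log2 1.99, SE 0.16, edgeR adjusted p = 3.09e-07). Vector Dox, named YAP5SA alone below, thus also held more JUN RNA than vector EtOH. All 8 basal mammary epithelial markers were detected, with a summed level of 8839.9 to 9484.8 CPM in vector EtOH and 9564 to 10935 in JUN EtOH, against 4908 to 6117 in vector Dox and 6176 to 8651 in JUN Dox. Of the 5 fibroblast markers 4 exceeded 3 counts in some library, with a summed level of 107 to 161 CPM that came mostly from PDGFRA (87.9 to 156 CPM), while DCN had 2.93 to 22.4 CPM and COL3A1 at most 2 counts. Of the 4 luminal markers 3 did, with a sum of 24.3 to 41.1 CPM, mostly from GATA3 (14.3 to 28.2 CPM) and FOXA1 (8.33 to 14.4 CPM), while PGR had at most 3 counts. Of the 4 endothelial markers 3 did and CDH5 had at most 3 counts, and of the 5 leukocyte markers 2 did, with CD3E of T cells at 0 in every library. The part of these lists in the results was not tested. In JUN Dox, the log2 CPM of genes deviated from the group mean along GC content in opposite directions in replicate 1 (correlation across genes -0.35) and replicate 3 (0.36). Replicates 1 and 3 of JUN EtOH deviated in the same directions (-0.20 and 0.23).

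In bulk RNA a lower level in fewer cells and less RNA per cell cannot be told apart, which holds for every gene described here. Levels are CPM with library sizes scaled by the TMM method, each standard error (SE) belongs to a log2 fold change, and a gene was called at an edgeR adjusted p (quasi-likelihood test, Benjamini-Hochberg over all 14775 genes) under 0.05.

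YAP5SA induction in vector cells changed 4 of the 7 genes. PTGER4, which encodes a receptor of prostaglandin E2, rose 2.09-fold, while the cyclooxygenase gene PTGS1 fell 7.88-fold, the synthase gene PTGES fell 2.88-fold, and HPGD, for the enzyme that inactivates prostaglandins, was lower by 3.05-fold, a call kept in 10 of 19 alternative fits. Of all genes tested, 30.1% were called in this comparison, 15.6% higher and 14.4% lower. The JUN vector without induction changed 6 of the 7, with PTGS2, PTGES and PTGER2 higher and PTGS1, PLA2G4A and PTGER4 lower, beside 39.1% of all genes, 20.1% higher and 18.9% lower. The members' median log2 fold changes were -0.24 and -0.18 in these comparisons, beside 0.01 and 0.00058 over all genes.

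Induction in JUN cells changed 4 of the 7, PTGS2 and PTGER4 higher and PTGS1 and PTGES lower, beside 21.4% of all genes, 11.2% higher and 10.3% lower. The JUN vector under induction changed 2 of the 7, PTGS2 and PTGES, both higher, beside 35.6% of all genes, 18.4% higher and 17.2% lower, a share of members no larger than that of all genes. With both manipulations against neither, PTGS2 and PTGER4 were higher and PTGS1 and PTGES lower, 4 of 7 beside 38.2% of all genes, 20.6% higher and 17.6% lower. With JUN alone against YAP5SA alone, PTGS1, PTGS2 and PTGES were higher and PTGER4 lower, 4 of 7 beside 54.5% of all genes, 26.9% higher and 27.6% lower, so the members were called about as often as any gene. These comparisons share groups and are not independent of each other.

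**Figure D2:**
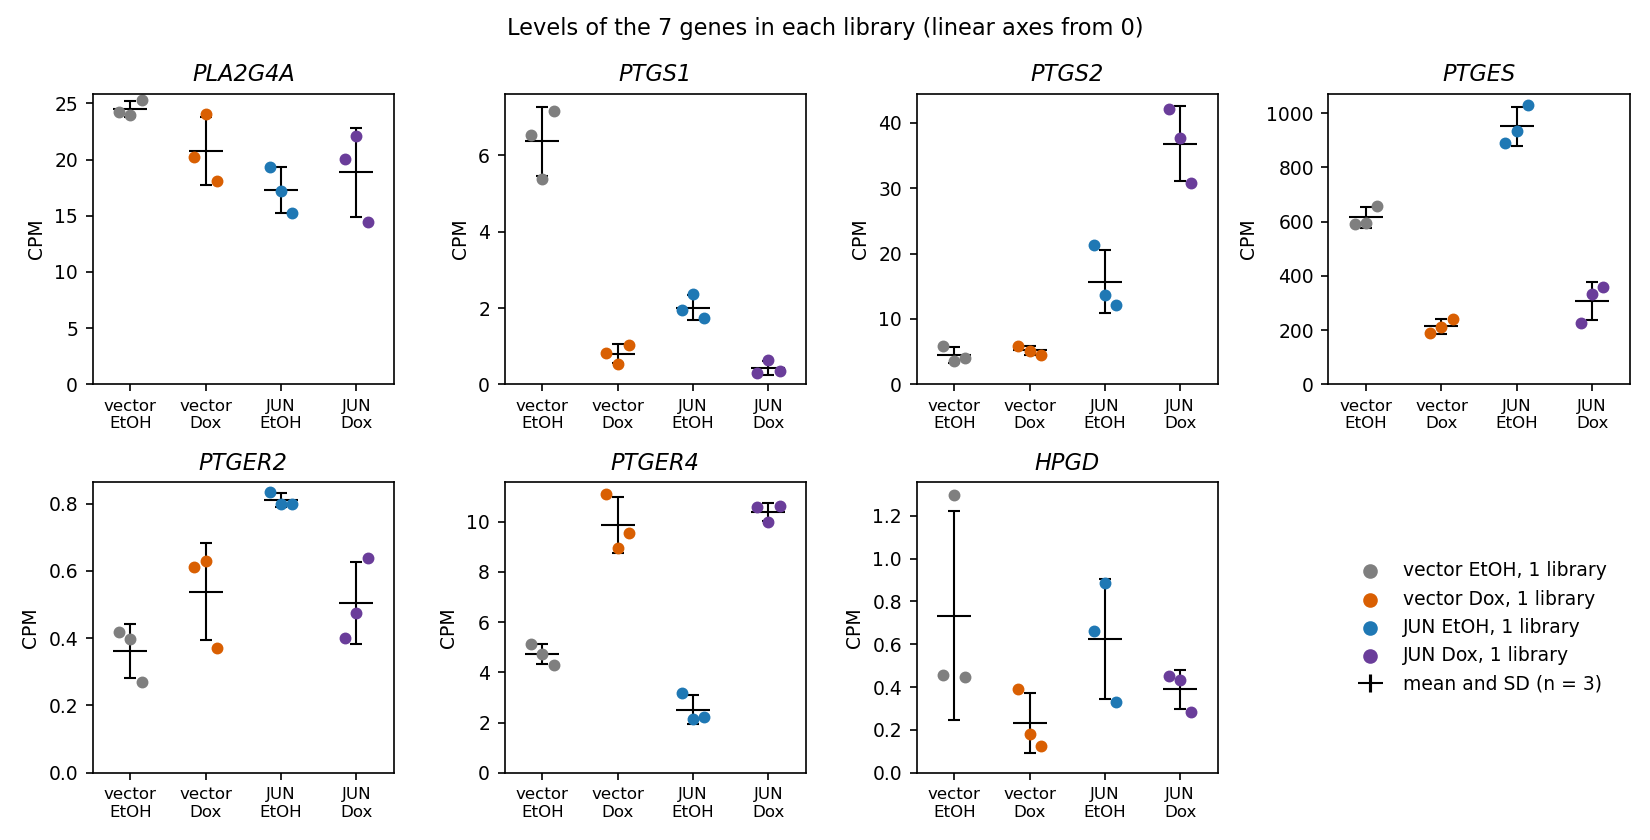
The vertical axis of each panel is the level of 1 gene in CPM on a linear scale from 0, each point is 1 library, and bars give the mean and SD of the 3 libraries of a group. PTGS1 is highest in vector EtOH and PTGS2 in JUN Dox, whereas PTGES falls and PTGER4 rises with induction in both vector and JUN cells.

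PLA2G4A (Entrez gene 5321, GRCh37 chromosome 1, 186798081 to 186958113, plus strand) encodes cytosolic phospholipase A2 alpha, which frees arachidonic acid from membranes. Vector cells had 24.3, 23.9 and 25.3 CPM in the EtOH libraries and 20.2, 24.1 and 18.1 CPM in the Dox libraries. JUN cells had 19.4, 17.2 and 15.2 CPM with EtOH and 20.1, 22.1 and 14.5 CPM with Dox. Both JUN groups lay wholly below vector EtOH, and the highest vector Dox library reached into the range of vector EtOH. The JUN vector without induction lowered PLA2G4A by a log2 fold change of -0.51 (SE 0.15, edgeR adjusted p = 0.0173). That call was lost without JUN EtOH replicate 2, vector EtOH replicate 3 or JUN EtOH replicate 3, where the edgeR adjusted p reached 0.068. In the order of levels no step between neighbouring groups passed the threshold.

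PTGS1 (Entrez gene 5742, GRCh37 chromosome 9, 125132809 to 125157982, plus strand) encodes cyclooxygenase 1, the form that many tissues make without stimulation. Vector cells had 6.54, 5.39 and 7.18 CPM with EtOH and 0.828, 0.541 and 1.03 CPM with Dox. JUN cells had 1.94, 2.36 and 1.74 CPM with EtOH and 0.301, 0.648 and 0.355 CPM with Dox, where 6 to 15 reads were counted per library. Vector EtOH stood above all other groups, JUN EtOH above both induced groups, and the induced groups overlapped.

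PTGS1 fell with induction by 2.98 on the log2 scale in vector cells (SE 0.27, edgeR adjusted p = 9.77e-07) and by 2.20 in JUN cells (SE 0.31, edgeR adjusted p = 0.00017). It fell by 1.66 with the JUN vector alone (SE 0.24, edgeR adjusted p = 9.27e-05). With both it was lower than with neither by 14.5-fold, a log2 fold change of -3.86 (SE 0.29, edgeR adjusted p = 8.64e-08). Under induction the further difference of -0.88 with the JUN vector missed the threshold (SE 0.35, edgeR adjusted p = 0.0642), and passed it when replicate 2 of either induced group was left out. The summed level of the 5 leukocyte markers moved with PTGS1 across the groups, at 24.4 to 31.2 CPM in vector EtOH, 9.34 to 11.9 in JUN EtOH, 4.62 to 6.04 in vector Dox and 1.45 to 3.59 in JUN Dox. CD14 carried nearly all of that sum (1.45 to 30.9 CPM over the libraries), while PTPRC, the marker common to leukocytes, had at most 3 counts. The 4 endothelial markers summed to 1.97 to 2.19 CPM in vector EtOH and to 0.100 to 0.969 CPM in the other groups. The part of either list in the PTGS1 result was not tested.

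PTGS2 (Entrez gene 5743, GRCh37 chromosome 1, 186640923 to 186650054, minus strand) encodes cyclooxygenase 2, the inducible form, and its promoter is the one shown with a TATA box and a CRE half-site. Vector cells had 5.85, 3.54 and 3.95 CPM with EtOH and 5.93, 5.09 and 4.54 CPM with Dox, ranges that overlapped. JUN cells had 21.3, 13.7 and 12.2 CPM with EtOH and 42.1, 37.6 and 30.7 CPM with Dox. Each JUN group lay wholly above both vector groups, and JUN Dox lay wholly above JUN EtOH.

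The JUN vector raised PTGS2 3.5-fold without induction, a log2 fold change of 1.81 (SE 0.23, edgeR adjusted p = 2.78e-05). Under induction the JUN vector raised it 7.09-fold, or 2.83 on the log2 scale (SE 0.22, edgeR adjusted p = 2.66e-07). Induction gave 0.21 in vector cells (SE 0.24, edgeR adjusted p = 0.561) and 1.23 in JUN cells (SE 0.20, edgeR adjusted p = 0.000596). The difference between those inductions was 1.02 (SE 0.31), which missed the threshold over all genes (edgeR adjusted p = 0.188, unadjusted 0.00557) and passed it in 2 of 19 alternative fits, one of them without JUN EtOH replicate 1. PTGS2 shares 219 exon bases, 3.99% of its exons, with the antisense gene PACERR, and any use of strand in the counting is not given in the sources used here.

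The ratio between the cyclooxygenase genes was higher in each manipulated group than in vector EtOH, with no overlap. For each PTGS1 read there were 0.55 to 0.895 PTGS2 reads in vector EtOH, 4.4 to 9.42 with YAP5SA alone (vector Dox), 5.82 to 10.98 with JUN alone (JUN EtOH) and 58.1 to 139.8 with both (JUN Dox). As a share of the reads of both genes, PTGS2 took 40.8% ± 5.96, 86.5% ± 4.58, 88.2% ± 3.21 and 98.8% ± 0.493 in the same order of groups (SD, n = 3). The vector Dox and JUN EtOH groups overlapped in this ratio, but reached it differently, vector Dox through less PTGS1 at a PTGS2 level like that of the control, and JUN EtOH through less PTGS1 and more PTGS2. The ratio was given as a description, since an exact two-sided permutation test of 3 against 3 libraries cannot give a p below 0.1.

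**Figure D3:**
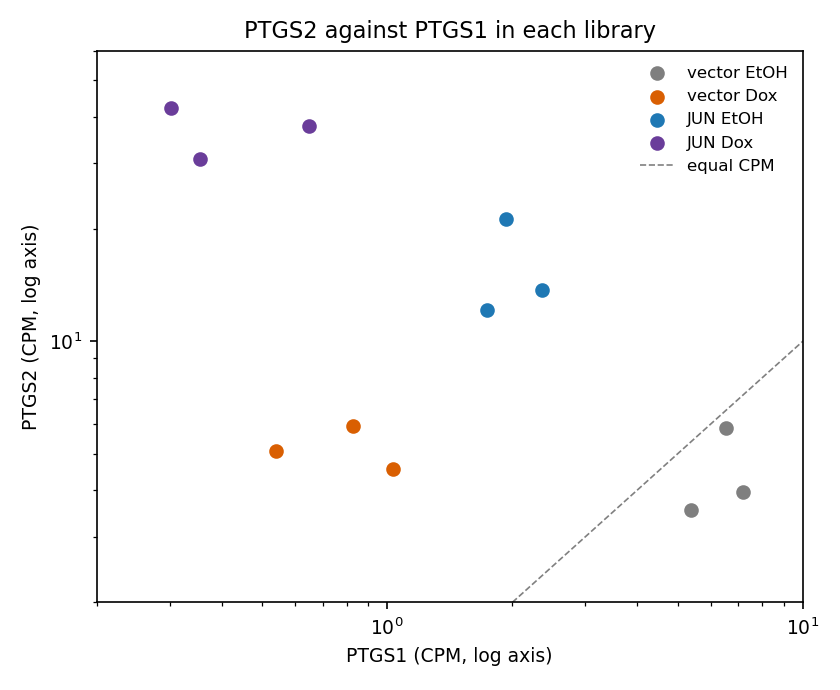
Each point is 1 library, with PTGS1 on the horizontal and PTGS2 on the vertical axis, both in CPM on log scales, and the dashed line marks equal CPM. The vector EtOH libraries lie below the line, and the JUN Dox libraries lie farthest above it, at 58.1 to 139.8 PTGS2 reads per PTGS1 read.

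PTGES (Entrez gene 9536, GRCh37 chromosome 9, 132500610 to 132515321, minus strand) encodes microsomal prostaglandin E synthase 1, which makes prostaglandin E2 from the product of the cyclooxygenases. Vector cells had 593, 594 and 659 CPM with EtOH and 188, 211 and 242 CPM with Dox. JUN cells had 889.7, 933 and 1030.2 CPM with EtOH and 228, 334 and 358 CPM with Dox. JUN EtOH was highest in all 3 libraries and vector EtOH second, whereas the lowest JUN Dox library lay within the range of vector Dox.

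Induction lowered PTGES by a log2 fold change of -1.52 in vector cells (SE 0.16, edgeR adjusted p = 3.81e-06) and of -1.63 in JUN cells (SE 0.16, edgeR adjusted p = 3.71e-06). The difference between these inductions was -0.11 (SE 0.22, edgeR adjusted p = 0.968). The JUN vector raised PTGES by 0.63 without induction (SE 0.15, edgeR adjusted p = 0.00497) and by 0.52 with it (SE 0.15, edgeR adjusted p = 0.0163). The latter call was lost without replicate 2 or replicate 3 of JUN Dox, and when only the libraries of that comparison were fitted. JUN alone exceeded YAP5SA alone by 4.45-fold.

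PTGER2 (Entrez gene 5732, GRCh37 chromosome 14, 52781023 to 52795316, plus strand) encodes the prostaglandin E2 receptor EP2, which raises cyclic AMP. Vector cells had 0.418, 0.399 and 0.269 CPM with EtOH and 0.610, 0.631 and 0.372 CPM with Dox. JUN cells had 0.836, 0.800 and 0.798 CPM with EtOH and 0.401, 0.475 and 0.639 CPM with Dox, and 6 to 19 reads lay behind each value. The JUN EtOH libraries lay above all others, and the other 3 groups overlapped. The JUN vector without induction raised it by 1.15 on the log2 scale (SE 0.36, edgeR adjusted p = 0.0212), a call that DESeq2 did not make (adjusted p = 0.0511) and that was lost without JUN EtOH replicate 1, JUN EtOH replicate 2 or vector EtOH replicate 3.

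PTGER4 (Entrez gene 5734, GRCh37 chromosome 5, 40680017 to 40693837, plus strand) encodes EP4, the other receptor of prostaglandin E2 that raises cyclic AMP. With EtOH the levels were 5.13, 4.74 and 4.31 CPM in vector cells and 3.17, 2.15 and 2.21 CPM in JUN cells. With Dox they were 11.1, 8.97 and 9.54 CPM in vector cells and 10.6, 9.98 and 10.6 CPM in JUN cells. Both induced groups lay above both uninduced groups and overlapped each other, and JUN EtOH lay wholly below vector EtOH.

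Induction raised PTGER4 by 1.06 on the log2 scale in vector cells (SE 0.16, edgeR adjusted p = 0.000127) and by 2.05 in JUN cells (SE 0.17, edgeR adjusted p = 8.8e-07). The JUN vector lowered it by a log2 fold change of -0.91 without induction (SE 0.17, edgeR adjusted p = 0.000918) and gave 0.07 with it (SE 0.15, edgeR adjusted p = 0.727). The larger induction in JUN cells therefore started from a lower level and ended within the range of vector Dox. The difference between the inductions was 0.99 (SE 0.23), which missed the threshold (edgeR adjusted p = 0.0532) and passed it in 7 of 19 alternative fits, among them DESeq2 (adjusted p = 0.00735) and those without vector Dox replicate 1 or JUN EtOH replicate 1.

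HPGD (Entrez gene 3248, GRCh37 chromosome 4, 175411326 to 175444305, minus strand) encodes 15-hydroxyprostaglandin dehydrogenase, which inactivates prostaglandins. With EtOH the levels were 0.456, 1.30 and 0.449 CPM in vector cells and 0.660, 0.885 and 0.328 CPM in JUN cells. With Dox they were 0.392, 0.180 and 0.124 CPM in vector cells and 0.451, 0.432 and 0.284 CPM in JUN cells, and 3 to 26 reads lay behind each value. Replicate 2 of vector EtOH stood well above the others of its group, and the lowest vector Dox library was at the floor. Induction in vector cells gave a log2 fold change of -1.61 (SE 0.58, edgeR adjusted p = 0.0482), and without vector EtOH replicate 2 it was -0.96 (adjusted p = 0.26). The call held in 4 of the 12 fits that left out a library. HPGD shares 314 exon bases, 5.68% of its exons, with an antisense gene. No other difference in HPGD between groups passed the threshold, the largest being JUN alone against YAP5SA alone (1.43, SE 0.59, edgeR adjusted p = 0.052).

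**Figure D4:**
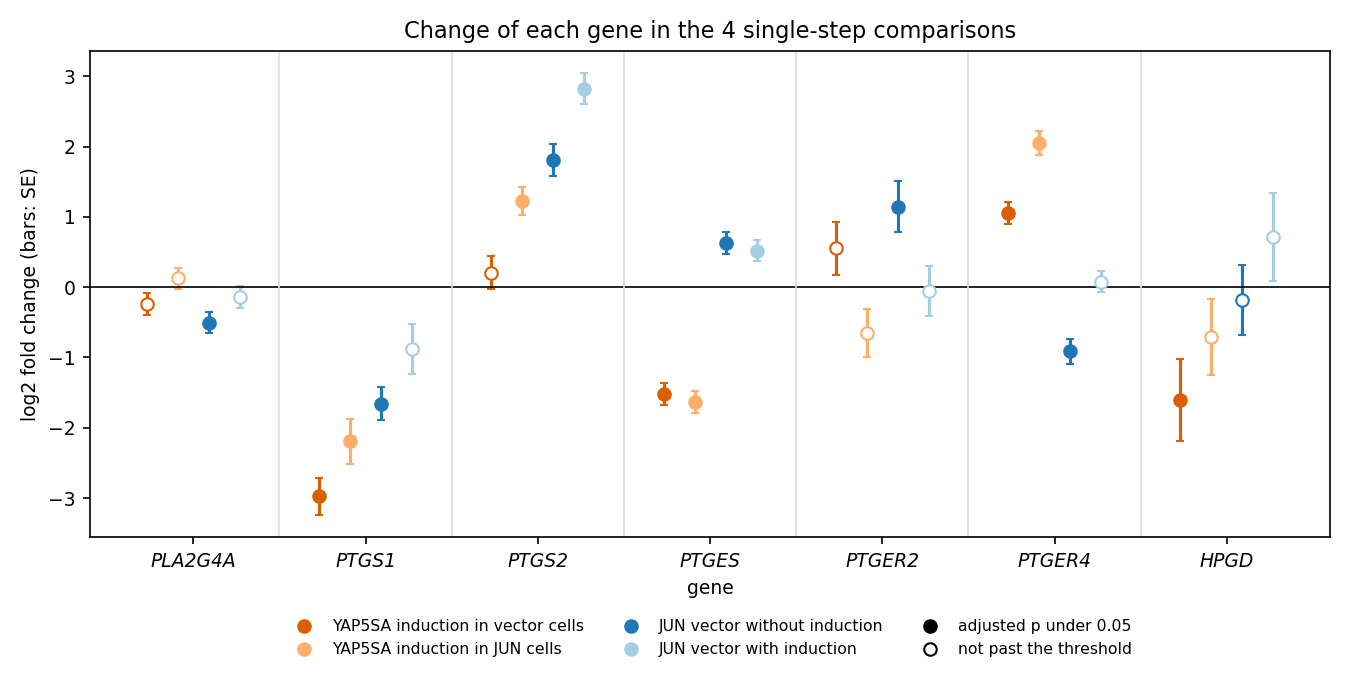
The vertical axis is the log2 fold change of each gene in the 4 single-step comparisons, bars give the SE, and filled points passed an edgeR adjusted p of 0.05. PTGS1 lies below 0 and PTGS2 above 0 in all 4, PTGES is negative for induction and positive for the JUN vector, and the bars are widest for HPGD and PTGER2.

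No member's difference between the inductions passed the threshold (0 of 7 in edgeR), beside 1.12% of all genes. Of all genes, 0.291% were called with a positive difference, JUN cells minus vector cells, and 0.826% with a negative one. The sign alone does not tell which response was larger, since induction lowers some genes. At an unadjusted p under 0.05 in edgeR there were 3 members, PTGS2, PTGER2 and PTGER4, beside 9% of all genes. DESeq2 called 1 member, PTGER4, beside 2.3% of the genes it tested.

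Levels of different genes were compared per kilobase (kb) of exon. In vector EtOH, PTGES had 325 ± 19.9 CPM per kb, PLA2G4A 8.51 ± 0.256, PTGER4 1.33 ± 0.116, PTGS1 1.10 ± 0.157 and PTGS2 0.811 ± 0.225. PTGER2 and HPGD were lowest, at 0.147 ± 0.0329 and 0.133 ± 0.0882 CPM per kb, within their spread. In JUN Dox, PTGES again led with 162 ± 36.6 CPM per kb, and PTGS2, with 6.71 ± 1.04, lay within the spread of PLA2G4A, with 6.56 ± 1.38. PTGER4 followed with 2.93 ± 0.101 CPM per kb, then PTGER2 with 0.205 ± 0.0494, and PTGS1 with 0.0752 ± 0.0323 lay within the spread of HPGD, with 0.0704 ± 0.0165. With the longest transcript as the length, HPGD stood at 0.251 CPM per kb in vector EtOH and above PTGER2, whose value was 0.147. In JUN Dox that length gave 0.133 CPM per kb for HPGD and 0.0866 for PTGS1, so their closeness there depends on the length used. The aligner does not split reads across introns, which lowers genes with short exons by unknown amounts, so gaps between genes are less certain than those between groups.

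The genes whose log2 CPM followed each member most closely over the 12 libraries were named as a description. The 12 libraries fall into 4 groups, so these correlations largely restate group means. For PTGS1 they were UNC5B (r = 0.98), SRD5A3 (0.98) and RBM47 (0.98), and UNC5B, a netrin receptor, had 17.7 CPM with neither manipulation, 2.39 with YAP5SA, 6.10 with JUN and 1.30 with both. For PTGS2 they were PLPP3 (r = 0.99), FEM1C (0.98) and CFL2 (0.98), and PLPP3, a lipid phosphate phosphatase, had 3.497, 3.96, 14.3 and 45.2 CPM in the same order. For PTGES they were FOXO1 (r = 0.99), UBAP1 (0.98) and IRF2BPL (0.98), and FOXO1, a transcription factor restrained by insulin signalling, had 95.01, 32.7, 172.8 and 45.1 CPM. For PTGER4 they were MSTO1 (r = 0.97), DNAJC9 (0.97) and SOCS2 (0.96). The closest matches were weaker for PTGER2 (LTBR, r = 0.94), HPGD (PEX11A, 0.92) and PLA2G4A (HADH, 0.84).

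Genes around the members were read from 7 lists, in which 70 genes were named. Over all genes tested the median log2 fold change was 0.01 or less from 0 in the 4 single-step comparisons. Of all genes, 15.6% were called higher and 14.4% lower on induction in vector cells, and 11.2% and 10.3% on induction in JUN cells. With the JUN vector 20.1% were higher and 18.9% lower without induction, and 18.4% and 17.2% with it. The list counts below are to be read beside these shares. Of 13 other genes of phospholipases and arachidonate release, 9 were tested. The list had 1 gene higher and 1 lower on induction in vector cells (median -0.46), 4 and 1 with the JUN vector alone (median 0.04), 1 and 3 on induction in JUN cells (median -0.95), and 2 and 1 with the JUN vector under induction (median 0.28). MGLL, a lipase that frees arachidonic acid from an endocannabinoid, was higher in each, with 42.6 CPM under neither manipulation, 95.8 under YAP5SA, 135 under JUN and 227 under both. With both against neither, MGLL rose by 2.42 on the log2 scale (SE 0.11, edgeR adjusted p = 6.56e-10). PLA2G12A, a secreted phospholipase, fell by 0.59 with the JUN vector alone (SE 0.08, edgeR adjusted p = 7.27e-05). Among the calls of this list, those of PLA2G4C and PLA2G4D rested on at most 17 and 19 counts in a library. Both genes were called higher with the JUN vector alone and lower on induction in JUN cells.

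Of 10 other prostaglandin and thromboxane synthase genes, 7 were tested. In vector cells induction gave 1 higher and 2 lower (median -0.24), in JUN cells 1 and 1 (median -0.10), and the JUN vector gave 1 and 2 without induction (median -0.15) and 1 and 2 with it (median -0.05). AKR1C3, which makes prostaglandin F2 alpha and also reduces steroids, fell on induction by 1.29 in vector cells (SE 0.11, edgeR adjusted p = 8.62e-07) and by 1.10 in JUN cells (SE 0.11, edgeR adjusted p = 7.87e-06). Reads of the related genes AKR1C1 and AKR1C2 may be shared with AKR1C3, which was not tested. TBXAS1, thromboxane synthase, rose by 1.55 with the JUN vector under induction (SE 0.25, edgeR adjusted p = 0.000214), to 3.62 from 1.23 CPM. PTGES2, a prostaglandin E synthase of another family, fell by 0.69 with the JUN vector alone (SE 0.12, edgeR adjusted p = 0.000347), whereas PTGES rose there.

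All 6 genes of prostaglandin breakdown and transport were tested, with 1 higher and 2 lower on induction in vector cells (median -0.20), 0 called with the JUN vector alone (median -0.04), 1 higher on induction in JUN cells (median -0.12) and 1 higher with the JUN vector under induction (median 0.11). The gene called with the JUN vector under induction was SLCO2A1, also 1 of the 2 lower on induction in vector cells. Its calls rested on at most 27 counts in a library. CBR3, a carbonyl reductase, fell by 0.68 on induction in vector cells (SE 0.14, edgeR adjusted p = 0.00228), but 71.1% of its exon bases are shared with an antisense gene. ABCC4, which exports prostaglandins, was higher on induction by 0.36 in vector cells (SE 0.11, edgeR adjusted p = 0.0233), a call lost when vector EtOH replicate 2, vector Dox replicate 2 or vector Dox replicate 3 was left out and when only the libraries of that comparison were fitted.

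Of 7 other prostanoid receptor genes, 3 were tested, and PTGER1, for the receptor EP1, had 0 counts in every library. PTGFR, for the prostaglandin F receptor, had 1.42 CPM in vector cells and 4.91 in JUN cells without induction, and 0.392 and 1.71 CPM with it. It fell by 1.87 on induction in vector cells (SE 0.33, edgeR adjusted p = 0.000645) and rose by 1.77 with the JUN vector alone (SE 0.25, edgeR adjusted p = 8.82e-05), both opposite in sign to PTGER4. PTGIR, for the prostacyclin receptor, rose by 2.66 with the JUN vector alone (SE 0.46, edgeR adjusted p = 0.000419), to 1.94 from 0.292 CPM. PTGDR2, a prostaglandin D2 receptor, was higher on induction by 0.72 in vector cells (SE 0.19, edgeR adjusted p = 0.0103), a call lost without vector EtOH replicate 2. PTGDR2 shares 149 exon bases, 5.17% of its exons, with CCDC86 on the other strand. CCDC86 averaged 2063 counts per library and PTGDR2 120, so reads of CCDC86 may be counted for PTGDR2. The medians of the 3 were -0.79 and -0.999 for induction in vector and JUN cells, and 1.77 and 2.10 for the JUN vector without and with induction.

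Of 16 genes of the cyclic AMP arm below EP2 and EP4, 14 were tested. Induction gave 0 higher and 4 lower in vector cells (median -0.14) and 0 and 3 in JUN cells (median -0.09), and the JUN vector gave 5 and 1 without induction (median 0.26) and 5 and 0 with it (median 0.21). PDE4B, a phosphodiesterase that breaks down cyclic AMP, had 0.892 CPM in vector cells and 3.10 in JUN cells without induction, and 0.216 and 0.954 CPM with it, and it rose by 1.79 on the log2 scale with the JUN vector alone (SE 0.28, edgeR adjusted p = 0.0002). PDE4D, of the same family, fell by 0.84 on induction in vector cells (SE 0.15, edgeR adjusted p = 0.000712). ADCY7, an adenylate cyclase, rose by 1.02 with the JUN vector alone (SE 0.13, edgeR adjusted p = 2.29e-05), although 41.8% of its exon bases are shared with BRD7 on the other strand.

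Of 12 genes of the lipoxygenase and leukotriene branch, which draws on the same arachidonic acid, 8 were tested. Induction gave 0 higher and 4 lower in vector cells (median -0.50) and 0 and 3 in JUN cells (median -0.59), and the JUN vector gave 2 and 4 without induction (median -0.10) and 3 and 1 with it (median -0.03). The genes lower on induction in vector cells included LTB4R and LTB4R2, which share 355 exon bases on the same strand, so reads may be counted for both. LTB4R2 averaged 35.1 counts per library and shares 39.5% of its exon bases with CIDEB on the other strand, which averaged 1811. ALOX15B, a 15-lipoxygenase, had 43.2 CPM in vector cells and 168 in JUN cells without induction, and 6.35 and 52.2 CPM with it, so it fell with induction and rose with JUN as PTGES did. Its log2 fold change was -2.76 for induction without the JUN vector (SE 0.20, edgeR adjusted p = 1.06e-07) and 1.96 with the JUN vector alone (SE 0.18, edgeR adjusted p = 1.26e-06). LTC4S, leukotriene C4 synthase, fell by 2.40 with both manipulations against neither (SE 0.38, edgeR adjusted p = 0.000169), to 0.267 from 1.43 CPM.

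Messenger RNAs rich in AU elements, PTGS2 among them, are held or degraded by binding proteins, and all 6 listed genes of this kind were tested. Induction gave 2 higher and 1 lower in vector cells (median -0.11) and 1 and 1 in JUN cells (median 0.15), and the JUN vector gave 2 and 2 both without induction (median -0.12) and with it (median 0.11). ZFP36L1, which promotes decay, had 171 CPM in vector cells and 467 in JUN cells without induction, and 356 and 577 CPM with it. ZFP36L2, of the same family, moved the other way with the JUN vector, from 326 to 187 CPM without induction (log2 fold change -0.80, SE 0.14, edgeR adjusted p = 0.000606). With both manipulations against neither, 10 genes of the 7 lists were called higher and 11 lower of 53 tested, beside 20.6% and 17.6% of all genes. With JUN alone against YAP5SA alone 25 were higher and 7 lower, beside 26.9% and 27.6% of all genes. For the difference between inductions 0 were higher and 1 lower, beside 0.291% and 0.826%.

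**Figure D5:**
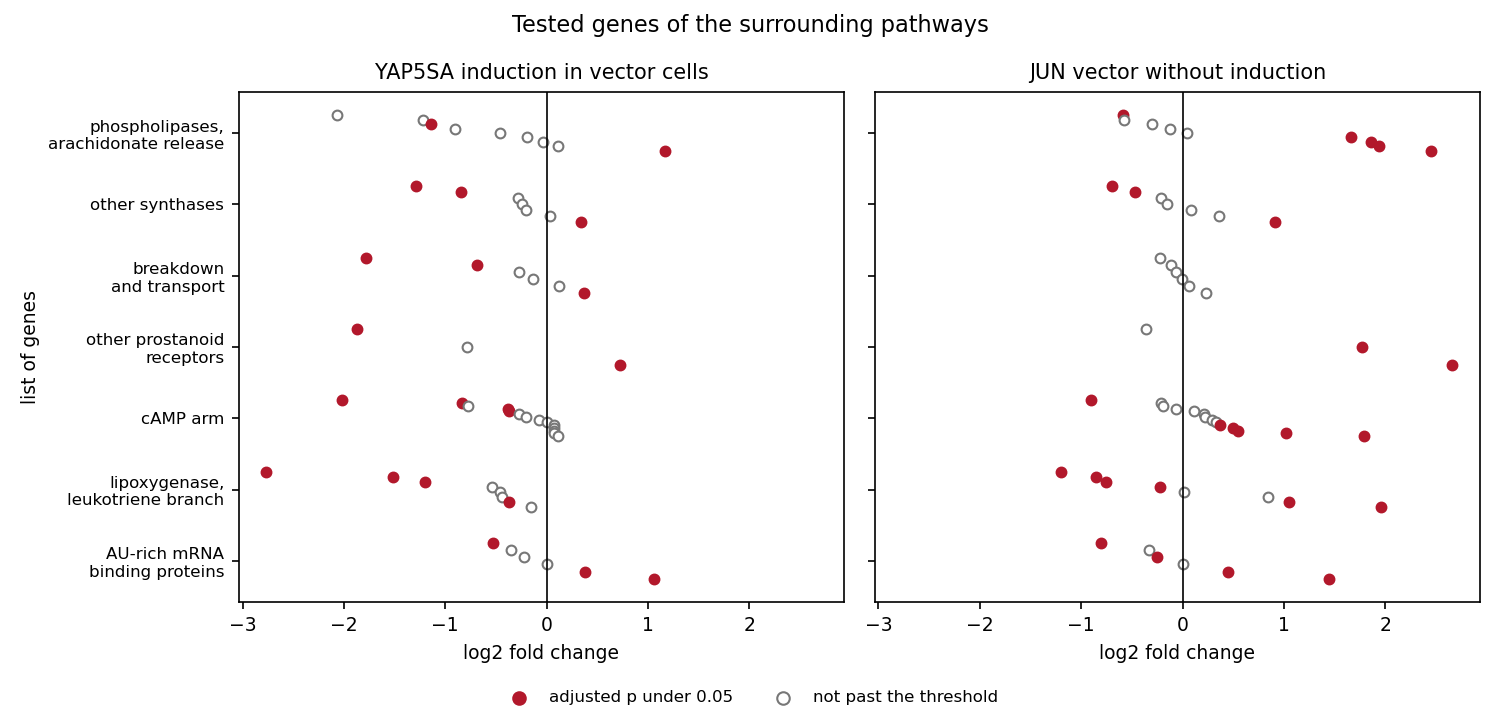
Each point is 1 tested gene of a list, with its log2 fold change on the horizontal axis, for YAP5SA induction in vector cells on the left and the JUN vector without induction on the right, and filled points passed an edgeR adjusted p of 0.05. The largest decrease on induction is ALOX15B in the lipoxygenase branch (-2.76), and PTGIR among the receptors lies farthest right with the JUN vector (2.66).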

How the data were processed

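Poly(A) RNA of 12 libraries was sequenced as single-end reads. By the methods of the study, the authors trimmed reads with Cutadapt, aligned them to hg19 with Bowtie2, counted them per gene with countOverlaps and ran DESeq2. The submitters' processing notes name Cutadapt 4.2 and Bowtie2 2.3.5.1, and the methods name another Bowtie2 version, so the version used is uncertain. They deposited raw counts per Entrez gene with no normalization. The gene annotation and the use of strand are not given in the sources used here.

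The tests used edgeR 4.0.16 (R 4.3.3). The filter filterByExpr (minimum count 10, minimum total 15) was applied, library sizes were scaled by TMM, and 1 robust quasi-likelihood model of the 4 groups was fitted to all 12 libraries (biological coefficient of variation 12.5%). The Benjamini-Hochberg method adjusted p over the 14775 genes left, with calls made under 0.05. Each SE is the log2 fold change over the square root of F. The floor was 3 counts, and floors cover counting error only, since reads carried no molecular identifiers. The fit was tested on simulated data.

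Columns were matched to samples by name. Symbols came from a RefSeq table for 99.4% of IDs, positions from GENCODE v44lift37 on GRCh37 (the hg19 assembly), and promoters from RefSeq on GRCh38.p14. The members and lists were chosen with earlier results of these data known. Named genes were the members, JUN, YAP1, at most 3 called genes per list and comparison with the largest changes at a mean of at least 1 CPM in the higher of the groups compared, and the 3 genes at a mean of at least 5 CPM most correlated with each member (log2 CPM, prior count 2). Other settings were RLE and upper-quartile factors, DESeq2 1.42.0, no filter, a mean of at least 5 CPM, only the libraries of a comparison, a replicate block, GC offsets and each library left out. They were run for the list genes too, an addition made after the data were seen.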

Additional observations from a re-analysis of the deposited data

Results flagged for a closer look

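ZFP36L1, from the list of proteins that bind AU-rich messenger RNAs, responded differently to induction in JUN and in vector cells by the test of the difference itself. The log2 response in JUN cells was smaller than in vector cells by a difference of -0.75 (SE 0.17, edgeR adjusted p = 0.0408), with a rise from 171 to 356 CPM in vector cells and from 467 to 577 CPM in JUN cells. The call held in 7 of 19 alternative fits, with adjusted p from 0.000443 to 0.131, and was lost with the replicate block, with GC offsets and in 10 of the 12 fits that left out a library, all but those without vector Dox replicate 1 or JUN EtOH replicate 3.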

How the results depend on the processing

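Of 948 refits of the members' log2 fold changes, 901 kept direction and call. The 8 that changed sign were all of values not called and all in fits without 1 library: HPGD with the JUN vector alone, PLA2G4A on induction in JUN cells and with the JUN vector under induction, PTGER2 with the JUN vector under induction, and PTGES for the difference between inductions. With each library left out, HPGD ranged from -0.521 to 0.473, PLA2G4A from -0.00600 to 0.290 and from -0.273 to 0.0226, PTGER2 from -0.279 to 0.0790, and PTGES from -0.233 to 0.0836. A mean of at least 5 CPM left 4 members and 2 of them called on induction in vector cells, since PTGS1, PTGER2 and HPGD were not tested there. Under induction the JUN vector changed 1 member when only the libraries of the comparison were fitted, and 1 to 3 with each library left out. For the difference between inductions, 1 member was called with upper-quartile factors, DESeq2, no filter or GC offsets, and 0 to 2 with each library left out. Of 99 results named for list genes, 76 were called in every alternative.

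The labels do not say what a replicate number stands for, and correlations of same-numbered deviations ran from -0.258 to 0.466. For replicates 1, 2 and 3 they were -0.230, -0.258 and 0.106 between vector EtOH and vector Dox. Between JUN EtOH and JUN Dox they were 0.283, 0.012 and 0.466. Whether the numbers pair the samples is therefore not settled. With the replicate block 2 members were called for the difference between inductions, PTGS2 (edgeR adjusted p = 0.0196) and PTGER4 (0.0296). The causes were not tested. PTGER2 and HPGD rested on 3 to 26 reads per library, which limits their precision.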
